A study of Mus musculus with 40 samples.

Results

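The 10 genes described here encode the alpha (Gsta2, Gsta3, Gsta4), pi (Gstp1), theta (Gstt1, Gstt2, Gstt3), kappa (Gstk1) and microsomal (Mgst1, Mgst3) glutathione transferases measured in mouse liver. They were chosen by gene symbol, taking every probe set of the array annotated to 1 of these symbols alone, which gave 13 of 45037 probe sets and 10 of 18193 genes. All male C57BL/6J mice were 12 weeks old and had 1 array each, with 4 mice in each of 10 groups. Nrf2-null mice lack Nrf2 in the whole body and came from inbred Nrf2-heterozygous parents. In each genotype, Nrf2-null and Wt, 1 group received D3T (a dithiolethione, 300 μmol/kg), 1 group received the vehicle alone, and 3 groups received CDDO-Im (a synthetic oleanane triterpenoid) at 3, 10 or 30 μmol/kg. The vehicle was a mixture of Cremophor-EL, DMSO and PBS that treated mice received too. Dosing was by gavage on alternate days, 3 treatments in a period of 5 days, and RNA was taken 24 hours after the last of them. The labels number the D3T and 30 μmol/kg CDDO-Im mice in another range than the rest, so a cohort and these treatments cannot be told apart.

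Glutathione transferases join the thiol of glutathione to electrophiles such as epoxides, quinones and lipid aldehydes, and the conjugates are then exported and trimmed to mercapturic acids. The alpha, pi and theta enzymes are cytosolic, kappa lies in mitochondria and peroxisomes, and the microsomal enzymes are membrane proteins of an unrelated fold. Nrf2 is a transcription factor that its partner Keap1 holds at low levels until an electrophile modifies Keap1. It then binds antioxidant response elements near genes of conjugation and reduction, of which alpha and mu glutathione transferases of rodent liver are textbook examples.

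Members were represented by the probe set with the highest mean signal, in log2 units of GCRMA, a method that corrects the brightness of each probe for background and scales the arrays to each other. A difference of 1 in these units is a ratio of 2. Of the 13 probe sets, 12 reached the minimum, log2 4 in 3 or more mice of a group, and all 10 genes passed. The second Mgst3 probe set lay between 2.238 and 2.591 on all arrays and was not used. Levels of different genes cannot be ranked from these values, since probe sets differ in brightness. The arrays ended at log2 16.37 to 16.74, and Gstp1 (14.27 to 16.02) and Mgst1 (15.68 to 16.05) lay close to that end, where array signals respond less than proportionally to RNA. As in any bulk tissue, fewer cells of a type and less RNA per cell cannot be told apart. The probe sets of Gsta2 and Gstp1 may also read the near-identical Gsta1 and Gstp2, so their values are uncertain in that respect.

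The labels and the array were checked as follows. The main Nfe2l2 probe set, which reads the gene of Nrf2, gave 2.72 to 3.1 in the 20 Nrf2-null mice and 10.77 to 11.75 in the 20 Wt mice, while its other probe set overlapped between the genotypes. The summed signal of 8 hepatocyte markers lay between log2 18.5 and 18.81 in every mouse. Nrf2-null D3T mouse 4 stood apart, with summed Kupffer cell markers at 11.02 against 12.78 to 13.34 in the other D3T mice of its genotype, and endothelial markers at 10.79 against 12.23 to 12.48. Of the 13 markers of these cells, 11 read lower in it than in the other 3 mice, and Marco and Lyve1 lay within their range. Nrf2-null mice 1 and 4 of the 30 μmol/kg group had exocrine pancreas markers at 13.16 and 15.25, against 7.21 to 11.78 in the other 38 mice. Genes of the circadian clock also differed between groups. Their score, the mean of 7 evening genes (such as Dbp and Per3) minus the mean of 5 morning genes (such as Arntl and Npas2), was 2.78 ± 0.81 after 10 μmol/kg CDDO-Im, -0.25 ± 0.83 after D3T and -2.76 ± 0.14 after vehicle in Wt mice (SD, n = 4 each). In Nrf2-null vehicle mice the score was 3.08 in mouse 1 and -3.31 to -2.46 in the others.

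Windows of 300 bases around the start of the genes (250 before and 50 after) were taken from RefSeq on GRCm38.p6 for 8 of the 10 members, in 10 windows. They are shown for 5 of the genes on which the results turn. The searched motif was TGACNNNGC, the core of the antioxidant response element, on both strands. It occurred once each in the windows of Gsta3 (TGACATTGC, bases -121 to -113 from the start) and Mgst1 (TGACCGTGC on the opposite strand, bases -56 to -48), and in 12.4% of all 32851 windows. After the windows had been read, the related TGAGNNNGC was searched as well, and it occurred in the windows of Gstp1 (TGAGTCAGC, bases -74 to -66, and TGAGGACGC on the opposite strand, bases -9 to -1) and Gstt1, and in 17.6% of all windows. The forms differ in 1 base and cannot both match at the same start. Capitals mark the matches of either form.
Gsta2, chr9:78347096-78347395, minus strand: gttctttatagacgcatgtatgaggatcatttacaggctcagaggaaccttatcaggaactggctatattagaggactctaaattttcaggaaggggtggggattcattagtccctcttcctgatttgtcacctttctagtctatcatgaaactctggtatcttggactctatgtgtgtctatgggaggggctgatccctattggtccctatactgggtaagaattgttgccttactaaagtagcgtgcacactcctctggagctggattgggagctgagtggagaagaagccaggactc
Gsta3, chr1:21240335-21240634, plus strand: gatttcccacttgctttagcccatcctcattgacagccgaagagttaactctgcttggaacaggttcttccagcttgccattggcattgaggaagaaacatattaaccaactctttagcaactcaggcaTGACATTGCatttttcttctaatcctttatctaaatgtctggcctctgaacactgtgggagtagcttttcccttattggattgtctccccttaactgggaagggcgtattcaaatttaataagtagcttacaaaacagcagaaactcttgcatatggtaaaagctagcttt
Gstp1, chr19:4037863-4038162, minus strand: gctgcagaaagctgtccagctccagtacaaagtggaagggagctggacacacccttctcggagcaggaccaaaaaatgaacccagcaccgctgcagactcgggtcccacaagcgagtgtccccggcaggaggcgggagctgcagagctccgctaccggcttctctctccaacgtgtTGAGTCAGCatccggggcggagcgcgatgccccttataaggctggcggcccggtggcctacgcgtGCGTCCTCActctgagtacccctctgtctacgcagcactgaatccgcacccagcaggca
Mgst1, chr6:138140277-138140576, plus strand: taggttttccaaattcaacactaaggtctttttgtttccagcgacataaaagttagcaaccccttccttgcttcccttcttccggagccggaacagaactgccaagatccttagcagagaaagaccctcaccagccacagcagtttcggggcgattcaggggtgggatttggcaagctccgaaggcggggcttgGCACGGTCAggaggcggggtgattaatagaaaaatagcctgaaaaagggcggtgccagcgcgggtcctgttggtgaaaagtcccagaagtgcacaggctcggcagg
Mgst3, chr1:167393792-167394091, minus strand: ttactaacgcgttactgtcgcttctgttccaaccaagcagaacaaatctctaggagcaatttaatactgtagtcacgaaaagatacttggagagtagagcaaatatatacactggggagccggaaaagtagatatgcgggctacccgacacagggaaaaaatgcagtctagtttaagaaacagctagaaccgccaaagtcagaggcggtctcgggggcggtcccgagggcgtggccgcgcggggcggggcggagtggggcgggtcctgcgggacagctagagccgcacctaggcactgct
The windows of Gsta2 and Mgst3, the members that rose with both compounds, held neither form in these 300 bases. Bases outside the windows were not searched, and the study cites an earlier report of a functional Nrf2 site in the Gsta2 promoter.

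After vehicle alone, 4 of the 10 members were lower in Nrf2-null than in Wt liver and 0 were higher, with limma at an adjusted p of 0.05, against 4.97% of all 9695 genes lower and 5.85% higher. Of all called genes 54.1% were higher, or 32.3% with each array centred on its median, and the 4 members were called lower on both scales. Gsta2, an alpha enzyme that also reduces organic hydroperoxides, read 9.83, 9.96, 10.1 and 9.28 in the Nrf2-null vehicle mice and 12.88, 11.66, 12.56 and 12.97 in the Wt vehicle mice. The groups lay far apart, and Gsta2 was 6.59-fold lower in Nrf2-null liver (log2 difference -2.72, 95% interval -3.43 to -2.01, adjusted p = 2.8e-06). Gsta4, which conjugates the lipid aldehyde 4-hydroxynonenal, read 9.98, 9.41, 10.04 and 9.18 in Nrf2-null mice and 11.32, 10.59, 11.13 and 10.98 in Wt mice, again without overlap. It was 2.56-fold lower in Nrf2-null liver (log2 -1.36, -1.93 to -0.78, adjusted p = 0.0018). Gstp1, the pi enzyme that is abundant in the liver of male mice, read 15.4, 15.65, 15.36 and 15.64 in Nrf2-null mice and 15.93, 15.98, 16 and 15.83 in Wt mice (1.34-fold lower, adjusted p = 0.014). Mgst1, of the endoplasmic reticulum and outer mitochondrial membrane, was 1.14-fold lower (log2 -0.19 ± 0.04 SE, adjusted p = 9e-04), with 15.68 to 15.9 in Nrf2-null mice and 15.92 to 15.98 in Wt mice. The calls of Gsta2, Gsta4 and Gstp1 stood under every alternative run, while that of Mgst1 was lost in a fit of these 8 mice alone (adjusted p = 0.13) and on its other, dim probe set (log2 -0.46, adjusted p = 0.097).

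The remaining 6 members were not told apart between the vehicle groups. Gsta3, whose mouse enzyme detoxifies the epoxide of aflatoxin B1, read 14.69 to 14.82 in Nrf2-null and 14.9 to 14.98 in Wt mice on its brighter probe set, with no overlap but an adjusted p of 0.47 (log2 -0.18, -0.49 to 0.12). On its other probe set it read 13.01 to 13.18 in Nrf2-null and 13.63 to 13.81 in Wt mice, a difference of -0.64 (adjusted p = 0.0087 in a fit of all kept probe sets). The probe sets of this gene therefore gave different sizes and different calls for the same mice. Over all arrays the brighter one read up to 15.43 and the other up to 14.14, so the brighter lay nearer the end of the scale. Whether this bears on the disagreement was not tested. Gstt1 differed by -0.36 (-0.69 to -0.03, adjusted p = 0.15), Gstt2 by -0.25 (-0.9 to 0.41) and Gstt3 by -0.71 (-1.65 to 0.23). Gstk1 differed by 0.04 (-0.17 to 0.26) and Mgst3 by 0.13 (-0.32 to 0.58), so of these 2 no difference larger than 0.58 on the log2 scale lies within the intervals. Pericentral hepatocyte genes, with 2 of 10 lower and 0 higher in the same comparison, summed to 16.24 to 16.98 in Nrf2-null and 16.75 to 16.94 in Wt vehicle mice, and their part in the differences was not tested.

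Gsta2 had the widest range of group means of the 10 members, 4.81 on the log2 scale. In Wt mice it read 13.36, 13.85, 13.93 and 14.15 after D3T, against 12.51 ± 0.6 after vehicle (SD, n = 4). Along the CDDO-Im series in Wt mice, the vehicle values above were followed by 12.18, 13.03, 13.52 and 13.46 at 3 μmol/kg, 14.48, 14.01, 14.1 and 12.8 at 10 μmol/kg, and 14.68, 14.59, 14.81 and 14.32 at 30 μmol/kg. The D3T and 30 μmol/kg mice all lay above every vehicle mouse, and 1 mouse of the 10 μmol/kg group lay among them. Gsta2 rose 2.48-fold with D3T (log2 1.31, 0.6 to 2.02, adjusted p = 0.029), 2.52-fold at 10 μmol/kg CDDO-Im (log2 1.33, 0.62 to 2.04, adjusted p = 0.0081) and 4.24-fold at 30 μmol/kg (log2 2.08, 1.37 to 2.8, adjusted p = 0.00011). At 3 μmol/kg the difference was 0.54 (-0.18 to 1.25, adjusted p = 0.64). The study treated Gsta2 as a canonical Nrf2 target known from earlier reports. It also reported the rise of Gsta2 in this experiment, by qPCR and on these arrays, so its direction here is not independent of that report.

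The call for D3T was lost when genes below the expression minimum (log2 4 in 3 or more mice of a group) were tested too (adjusted p = 0.055) and when Wt vehicle mouse 2 or 3 or Wt D3T mouse 2, 3 or 4 was left out, with differences of 1.02 to 1.32 and adjusted p from 0.06 to 0.13. The call at 10 μmol/kg was lost without Wt vehicle mouse 2, the lowest of its group (log2 1.05, adjusted p = 0.053). It was also lost in a fit of the compared groups alone (log2 1.33, adjusted p = 0.06) and with the clock score as a covariate, added after the data had been seen (log2 1.76, adjusted p = 0.082). The call at 30 μmol/kg stood in every setting and without any mouse.

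In Nrf2-null liver Gsta2 read 10.01, 9.93, 10.64 and 10.26 after D3T, against 9.79 ± 0.36 after vehicle (SD, n = 4). In the CDDO-Im series it read 10.18 ± 0.32 at 3, 10.08 ± 0.62 at 10 and 10.29 ± 0.68 at 30 μmol/kg, and each treated group overlapped with vehicle. No treatment gave a call in Nrf2-null mice, with differences of 0.29 to 0.5 and intervals that reached 1.21 at the most. Every Nrf2-null mouse, treated or not, lay below every Wt mouse. The response to 30 μmol/kg CDDO-Im was smaller in Nrf2-null mice than in Wt mice (difference in response -1.59 log2, -2.59 to -0.58, adjusted p = 0.033), which made Gsta2 the 1 member called for a genotype difference in response, against 1.78% of all genes called lower in this comparison. Of all genes called there, 85% were higher, or 48.3% with centred arrays. The Gsta2 call was lost when Wt vehicle mouse 2, Wt 30 μmol/kg mouse 2 or 3, Nrf2-null vehicle mouse 2 or 3, or Nrf2-null 30 μmol/kg mouse 1 or 3 was left out (-1.59 to -1.29, adjusted p from 0.052 to 0.088), with no expression minimum (adjusted p = 0.061) and with a second quantile normalization (-1.57, adjusted p = 0.051). For 10 μmol/kg the difference in response was -1.05 (-2.05 to -0.04, adjusted p = 0.21) and for D3T it was -0.89 (-1.9 to 0.11, adjusted p = 0.45). For D3T and for 3 and 10 μmol/kg CDDO-Im, limma called 0 members for a difference between genotypes in response, where 0.0722%, 1.72% and 5.4% of all genes were called. At an unadjusted p under 0.05, 3 members passed in each, against 13.2%, 14.6% and 22.1% of all genes.

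**Figure D1:**
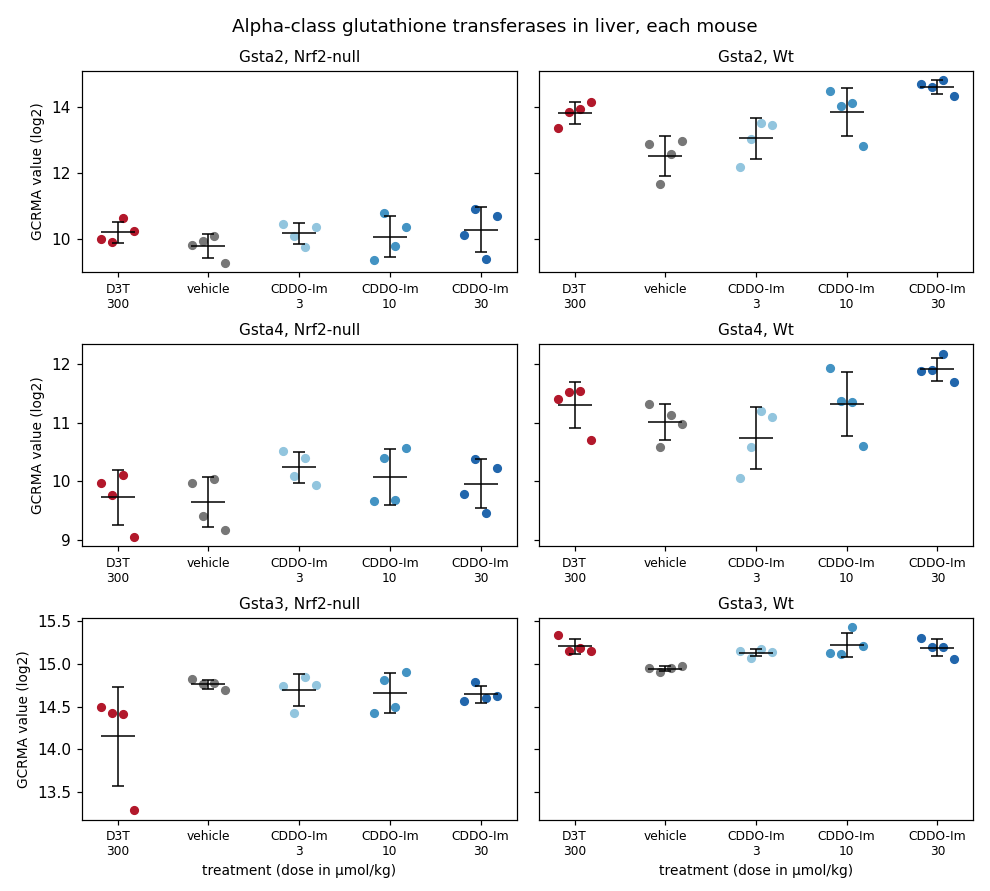
GCRMA values (log2, vertical axes) of Gsta2, Gsta4 and Gsta3 in each mouse, by treatment (horizontal axes, doses in μmol/kg), with Nrf2-null mice on the left and Wt mice on the right; bars give the mean ± SD of 4 mice. The 20 Nrf2-null mice lie between 9.28 and 10.92 for Gsta2, and the 20 Wt mice between 11.66 and 14.81.

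The group means of Gsta4 and Gsta2 had a Pearson r of 0.96 over the 10 groups, a description of values that come from the same arrays. In Wt mice Gsta4 read 11.4, 11.52, 11.53 and 10.71 after D3T, against 11.01 ± 0.31 after vehicle, and the groups overlapped (log2 0.28, -0.29 to 0.86, adjusted p = 0.66). Its values at 3 μmol/kg CDDO-Im were 10.05, 10.59, 11.2 and 11.09, at 10 μmol/kg 11.93, 11.37, 11.35 and 10.6, and at 30 μmol/kg 11.87, 11.89, 12.17 and 11.69. At 30 μmol/kg every mouse lay above every vehicle mouse, and Gsta4 rose 1.86-fold (log2 0.9, 0.32 to 1.47, adjusted p = 0.02). The lower doses gave -0.28 (-0.85 to 0.3) and 0.31 (-0.27 to 0.88). Without Wt vehicle mouse 2 or without Wt 30 μmol/kg mouse 3 the call was lost (log2 0.76, adjusted p = 0.079, and log2 0.81, adjusted p = 0.066). In Nrf2-null mice Gsta4 read 9.73 ± 0.47 after D3T, 9.65 ± 0.43 after vehicle, and 10.24 ± 0.27, 10.08 ± 0.47 and 9.96 ± 0.42 at 3, 10 and 30 μmol/kg (SD, n = 4 each). None of the 4 treatments was called there, and the largest difference was 0.59 at 3 μmol/kg (0.01 to 1.16, adjusted p = 0.33). The Nrf2-null minus the Wt response of Gsta4 was -0.58 at 30 μmol/kg (-1.4 to 0.23, adjusted p = 0.35). It was -0.2 with D3T, 0.86 at 3 μmol/kg (0.05 to 1.68, adjusted p = 0.3) and 0.12 at 10 μmol/kg. The data thus do not separate the Gsta4 responses of the genotypes.

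Gsta3 moved little in Wt liver and within a narrow spread. It read 15.34, 15.15, 15.19 and 15.15 after D3T, against 14.95, 14.9, 14.95 and 14.98 after vehicle, and 15.13 ± 0.04, 15.22 ± 0.14 and 15.19 ± 0.1 at 3, 10 and 30 μmol/kg CDDO-Im. In all 4 treated groups every mouse lay above every vehicle mouse (exact two-sided permutation test, p = 0.029 each, which is the lowest value groups of 4 can give). The differences were 0.19 to 0.28 and none was called in the fit of all groups (adjusted p from 0.21 to 0.74). In fits of the 2 groups alone, which use the spread of those mice only, D3T (adjusted p = 0.024), 10 μmol/kg (adjusted p = 0.024) and 30 μmol/kg (adjusted p = 0.0097) were called. Those fits called 518, 1589 and 2420 of all 9695 genes. On the other probe set the Wt differences were -0.05 with D3T, 0.02, 0.18 and 0.2 along the doses, with no call.

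In Nrf2-null liver D3T had the opposite sign on the brighter probe set. Gsta3 read 14.49, 14.43, 14.41 and 13.28 after D3T, against 14.82, 14.76, 14.78 and 14.69 after vehicle, and it fell by 0.61 on the log2 scale (adjusted p = 0.017). The lowest value was that of mouse 4, whose Kupffer and endothelial markers are given above, and without that mouse the difference was -0.32 (adjusted p = 0.031). The call was lost in a fit of the 2 groups alone (adjusted p = 0.59) and with array weights (log2 -0.33, adjusted p = 0.068). That fit of the 2 groups called 0 of all 9695 genes, so no gene kept a call in it. CDDO-Im gave -0.07, -0.1 and -0.11 at 3, 10 and 30 μmol/kg, with no call. The Nrf2-null minus the Wt response to D3T was -0.87 (-1.3 to -0.44, adjusted p = 0.078). This passed the threshold without Nrf2-null D3T mouse 4 (-0.58, adjusted p = 0.03), mouse 1 (-0.98, adjusted p = 0.026) or mouse 3 (-0.96, adjusted p = 0.048). On the second probe set the Nrf2-null values were 13.11, 13.16, 13.14 and 11.88 after D3T, against 13.08 ± 0.08 after vehicle. There 3 of 4 D3T mice lay within or next to the vehicle range (log2 -0.26, adjusted p = 0.4). In Wt mice D3T gave -0.05 on that probe set, the same sign. The Nrf2-null minus the Wt response on it was -0.21 (adjusted p = 0.76 in a fit of all kept probe sets).

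Gstp1 was close to the end of the scale in every group. In Nrf2-null mice it read 15.04, 15.16, 15 and 14.27 after D3T, against 15.4, 15.65, 15.36 and 15.64 after vehicle, and all D3T mice lay below all vehicle mice. It fell 1.57-fold (log2 -0.65, -0.88 to -0.42, adjusted p = 0.0012). The call stood without any 1 of the 8 mice, with differences of -0.74 to -0.45. It was lost in a fit of the 2 groups alone (adjusted p = 0.47), where 0 of all 9695 genes were called. In Wt mice D3T gave 15.56, 15.54, 15.86 and 15.76, against 15.93 ± 0.08 after vehicle (log2 -0.25, -0.48 to -0.02, adjusted p = 0.22), and this response differed between genotypes by -0.4 (-0.72 to -0.07, adjusted p = 0.28). CDDO-Im left Gstp1 at 15.82 ± 0.04, 15.87 ± 0.12 and 15.99 ± 0.03 at 3, 10 and 30 μmol/kg in Wt mice and at 15.42 ± 0.17, 15.56 ± 0.1 and 15.66 ± 0.05 in Nrf2-null mice, with no call at any dose.

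Of all members, D3T in Nrf2-null liver thus gave 0 calls higher and 2 lower, Gsta3 and Gstp1, where 2.27% and 1.83% of all genes were higher and lower. The 3 doses of CDDO-Im gave 0 called members in Nrf2-null liver with limma, where 0.774%, 0.0722% and 0.175% of all genes were called at 3, 10 and 30 μmol/kg. At an unadjusted p under 0.05, 3, 4 and 1 of the 10 members passed at these doses, against 14.7%, 12.9% and 10.1% of all genes.

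Mgst3, a membrane enzyme with glutathione transferase and peroxidase activity, showed the sharpest separation with D3T. In Wt mice it read 10.33, 10.17, 10.48 and 10.23 after D3T, against 9.27, 8.62, 8.67 and 9.15 after vehicle, and the groups lay well apart. It rose 2.6-fold (log2 1.38, 0.93 to 1.83, adjusted p = 0.00029), a call that stood in every setting and without any mouse. After CDDO-Im it read 8.14, 8.65, 8.86 and 9.42 at 3 μmol/kg, 9.54, 9.87, 9.71 and 9.42 at 10 μmol/kg, and 9.89, 9.37, 10 and 9.21 at 30 μmol/kg. The 10 μmol/kg mice lay above all vehicle mice, and 1 of the 30 μmol/kg mice lay within the vehicle range. Mgst3 rose 1.64-fold at 10 (log2 0.71, adjusted p = 0.025) and 1.61-fold at 30 μmol/kg (log2 0.69, adjusted p = 0.023), and differed by -0.16 (-0.61 to 0.29) at 3 μmol/kg. Of the 8 mice, leaving out Wt vehicle mouse 2 or 3 or Wt 10 μmol/kg mouse 2 ended the call at 10 μmol/kg (log2 0.61 to 0.63, adjusted p from 0.075 to 0.093). So did testing with no expression minimum (adjusted p = 0.051) and the clock score as a covariate (log2 0.8, adjusted p = 0.21). At 30 μmol/kg the call ended without Wt vehicle mouse 2 or 3 or Wt 30 μmol/kg mouse 1 or 3 (log2 0.56 to 0.6, adjusted p from 0.066 to 0.098).

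In Nrf2-null mice Mgst3 read 9.35, 9.06, 9.23 and 8.44 after D3T, against 9.4, 9.09, 8.93 and 8.81 after vehicle, and the groups overlapped (log2 -0.04, -0.49 to 0.42, adjusted p = 0.96). The Nrf2-null minus the Wt response to D3T was -1.41 (-2.05 to -0.77) and was not called, with an adjusted p of 0.055 over all genes. Without Nrf2-null vehicle mouse 4, or without Nrf2-null D3T mouse 1 or 3, this passed the threshold (-1.52 to -1.49, adjusted p from 0.026 to 0.048). Without Nrf2-null D3T mouse 4, the lowest at 8.44, it was -1.22 and was not called (adjusted p = 0.057). CDDO-Im in Nrf2-null mice gave 9.5 ± 0.27, 9.58 ± 0.14 and 9.35 ± 0.4 at 3, 10 and 30 μmol/kg, against 9.06 ± 0.26 after vehicle (SD, n = 4 each). These differences of 0.44, 0.52 and 0.29 were not called, and the genotypes differed in response by -0.19 (-0.83 to 0.45) at 10 and -0.4 (-1.04 to 0.24) at 30 μmol/kg. At these doses the data do not separate the Nrf2-null response of Mgst3 from the Wt response.

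Mgst1 had the narrowest spread, with 0.22 between its highest and lowest group mean and a within-group SD of 0.05. No treatment was called in either genotype. In Wt mice the differences were 0.03 with D3T and -0.02, 0.01 and 0 at 3, 10 and 30 μmol/kg CDDO-Im, with no interval reaching beyond 0.11. In Nrf2-null mice they were 0.11 with D3T and 0.1, 0.13 and 0.14 along the doses, with adjusted p from 0.099 to 0.24. Nrf2-null vehicle mouse 1, at 15.9, was higher than the other 3 at 15.68 to 15.76, and without it all 4 treatments were called higher, D3T by 0.15 and the doses of CDDO-Im by 0.14, 0.18 and 0.18 (adjusted p from 0.0049 to 0.029). Its other probe set lay at 3.929 to 5.549, close to the minimum, and was called in no comparison.

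**Figure D2:**
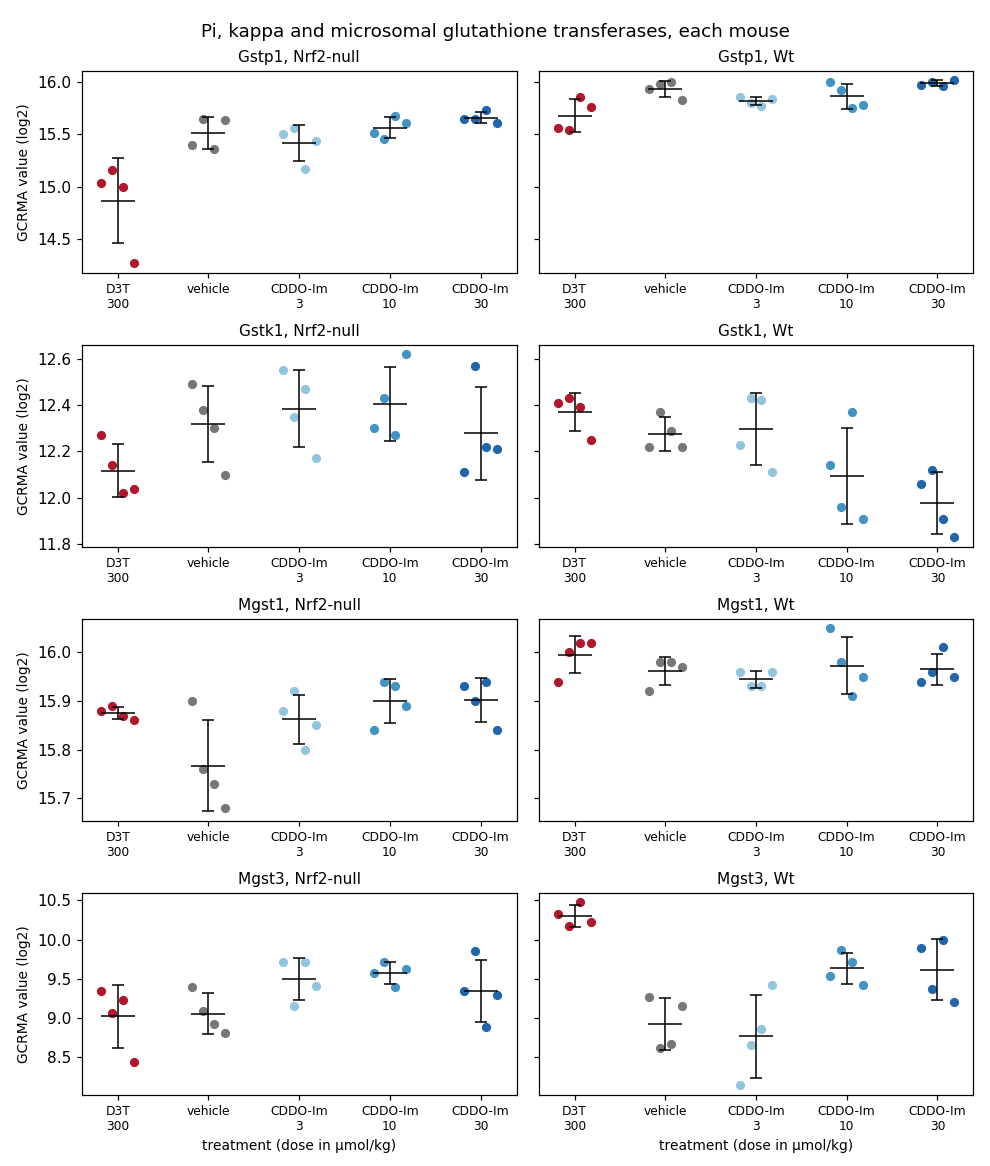
GCRMA values (log2, vertical axes) of Gstp1, Gstk1, Mgst1 and Mgst3 in each mouse, by treatment (horizontal axes, doses in μmol/kg), with Nrf2-null mice on the left and Wt mice on the right; bars give the mean ± SD of 4 mice. The Wt D3T mice lie between 10.17 and 10.48 for Mgst3, above all other Wt mice.

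In the fit of all groups the theta members were not called for any treatment against vehicle in either genotype. Gstt1, which conjugates small halogenated alkanes, read 13.55, 13.61, 13.47 and 13.18 in Wt mice after D3T, against 13.46, 13.34, 13.33 and 13.44 after vehicle. It stood at 13.11 ± 0.24, 13.17 ± 0.17 and 12.99 ± 0.16 at 3, 10 and 30 μmol/kg CDDO-Im. At each of these doses all 4 mice lay below all vehicle mice (exact p = 0.029 each), with differences of -0.28, -0.22 and -0.4 and adjusted p of 0.56, 0.36 and 0.066. At 30 μmol/kg Gstt1 was called in a fit of the 2 groups alone (adjusted p = 0.0075) and with array weights (log2 -0.37, adjusted p = 0.014). These fits called 2420 and 3246 of all 9695 genes. The median of all genes was lower by 0.157 at that dose. In Nrf2-null mice the differences were 0.01 with D3T and 0.37, 0.4 and 0.01 along the doses, with overlapping groups. Array weights gave calls there at 3 μmol/kg (log2 0.55, adjusted p = 0.024) and 10 μmol/kg (log2 0.6, adjusted p = 0.013). The genotypes differed in the response to 3 μmol/kg by 0.65 (0.19 to 1.12, adjusted p = 0.15) and to 10 μmol/kg by 0.63 (0.16 to 1.09, adjusted p = 0.095). Both were called without Nrf2-null vehicle mouse 1 (log2 0.78, adjusted p = 0.05, and log2 0.75, adjusted p = 0.048).

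Gstt2 varied more between mice. In Wt mice it read 10.89, 11.27, 10.83 and 10.64 after D3T, against 11.2, 9.88, 10.52 and 10.47 after vehicle (log2 0.39, -0.27 to 1.05, adjusted p = 0.57). At 3 μmol/kg CDDO-Im it read 9.23, 10.03, 10.44 and 10.22, at 10 μmol/kg 11.31, 11.14, 10.6 and 11.05, and at 30 μmol/kg 9.86, 9.85, 10.25 and 9.63. The 10 μmol/kg mice thus lay above all mice of both other doses. Gstt2 was higher at 10 than at 3 μmol/kg (log2 1.04, 0.38 to 1.7, adjusted p = 0.032) and lower at 30 than at 10 μmol/kg (log2 -1.12, -1.78 to -0.47, adjusted p = 0.013). Against vehicle the differences were -0.53, 0.51 and -0.62 along the doses, with adjusted p of 0.59, 0.29 and 0.17.

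In Wt mice the clock score also differed between these doses. It was -2.78 ± 0.22 at 3, 2.78 ± 0.81 at 10 and -2.37 ± 0.12 at 30 μmol/kg (SD, n = 4 each). In the Nrf2-null 10 μmol/kg group, mice 2 and 4 had scores of -2.37 and -2.55 with Gstt2 at 11.18 and 10.75, and mice 1 and 3 had scores of 1.99 and 2.33 with Gstt2 at 11.14 and 11.45. With the score as a covariate, added after the data had been seen, Gstt2 differed by 0.13 between 10 and 3 μmol/kg (adjusted p = 0.95) and by -0.28 between 30 and 10 μmol/kg (adjusted p = 0.8). In that fit 9 genes were higher and 24 lower at 10 μmol/kg against vehicle, where 491 and 1207 were so without it, and the score and this dose cannot be told apart in Wt mice. Leaving out any 1 of Wt 3 μmol/kg mice 1 and 2 and Wt 10 μmol/kg mice 1, 2 and 4 also ended the call between 10 and 3 μmol/kg (log2 0.79 to 1.06, adjusted p from 0.062 to 0.15).

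In Nrf2-null vehicle mice Gstt2 read 11.76 in mouse 1, the mouse with the high clock score, and 9.3, 10.28 and 9.73 in the others. After D3T it read 10.76 ± 0.32, and at 3, 10 and 30 μmol/kg CDDO-Im 10.62 ± 0.03, 11.13 ± 0.29 and 10.32 ± 0.34, against 10.27 ± 1.07 after vehicle (SD, n = 4 each). None of these was called. Without Nrf2-null vehicle mouse 1, D3T (log2 0.99, adjusted p = 0.021) and 10 μmol/kg (log2 1.36, adjusted p = 0.0039) were called higher. Array weights gave the same calls (log2 1.01, adjusted p = 0.044, and log2 1.23, adjusted p = 0.017).

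**Figure D3:**
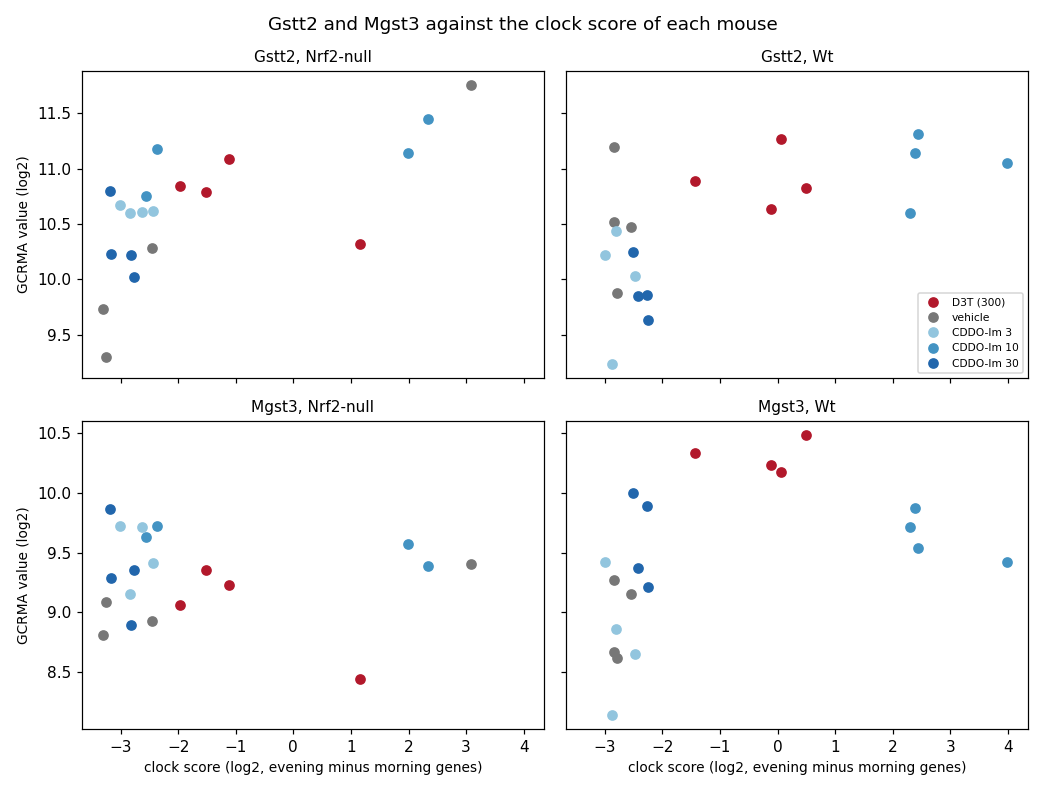
GCRMA values (log2, vertical axes) of Gstt2 (top) and Mgst3 (bottom) against the clock score (horizontal axes, log2, mean of evening minus mean of morning clock genes) of each mouse, with Nrf2-null mice on the left and Wt mice on the right, coloured by treatment. The 4 Wt mice of the 10 μmol/kg group have scores of 2.3 to 3.99, and Nrf2-null vehicle mouse 1 has a score of 3.08 and the highest Gstt2 value, 11.76.

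Gstt3 had the largest within-group SD of the members, 0.68. In Wt mice it read 9.55, 10.02, 8.76 and 9.14 after D3T, against 8.34, 7.74, 8.15 and 8.44 after vehicle, with no overlap (log2 1.2, 0.26 to 2.14, adjusted p = 0.14, and exact p = 0.029). A fit of the 2 groups alone (adjusted p = 0.033, with 518 of all 9695 genes called) and array weights (log2 1.33, adjusted p = 0.015, with 1289 called) did call it. It stood at 8.48 ± 0.75, 8.92 ± 0.6 and 8.76 ± 0.39 at 3, 10 and 30 μmol/kg CDDO-Im, overlapping with vehicle at 3, 10 and 30 μmol/kg. In Nrf2-null mice it read 8.3, 7.87, 8.56 and 10.22 after D3T, against 8.99, 7.24, 7.55 and 6.07 after vehicle (log2 1.28, 0.34 to 2.22, adjusted p = 0.11). The highest of these values came from D3T mouse 4, the mouse with low Kupffer and endothelial markers, and without it the difference was 0.78 (adjusted p = 0.34). Without Nrf2-null vehicle mouse 1 it was 1.79 (adjusted p = 0.013). The D3T response of Gstt3 differed between genotypes by 0.08, with an interval of -1.25 to 1.41 that leaves a wide range of sizes possible.

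**Figure D4:**
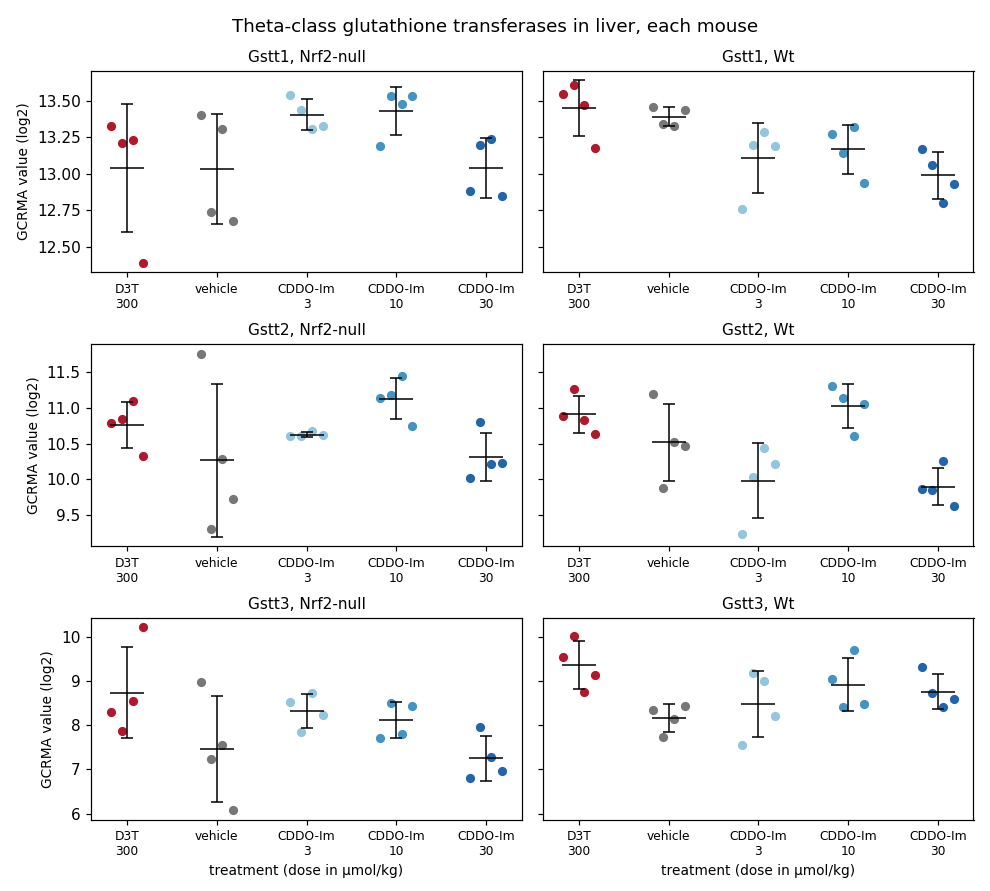
GCRMA values (log2, vertical axes) of Gstt1, Gstt2 and Gstt3 in each mouse, by treatment (horizontal axes, doses in μmol/kg), with Nrf2-null mice on the left and Wt mice on the right; bars give the mean ± SD of 4 mice. Nrf2-null vehicle mice spread from 9.3 to 11.76 for Gstt2 and from 6.07 to 8.99 for Gstt3.

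Gstk1, the kappa enzyme, was called once against vehicle. In Wt mice it read 12.06, 12.12, 11.91 and 11.83 at 30 μmol/kg CDDO-Im, against 12.22, 12.37, 12.29 and 12.22 after vehicle, without overlap, and it fell by 0.29 on the log2 scale (adjusted p = 0.041). The median of all genes was lower by 0.157 at this dose, and relative to array medians the Gstk1 difference was -0.12 (adjusted p = 0.48). The call was also lost without any 1 of the 4 vehicle mice or without 30 μmol/kg mouse 3 or 4 (-0.31 to -0.25, adjusted p from 0.052 to 0.13). With D3T it differed by 0.1 (-0.12 to 0.31), and at 3 and 10 μmol/kg CDDO-Im by 0.02 and -0.18. In Nrf2-null mice the differences ran from -0.2 with D3T to 0.09 at 10 μmol/kg, with no call.

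In Wt liver as a whole, D3T gave 2 members higher and 0 lower, against 2.64% and 1.59% of all genes, and the median change was 0.27 over the members and 0 over all genes. CDDO-Im at 3 μmol/kg gave 0 called members with limma, against 0.474% of all genes. At an unadjusted p under 0.05 it gave 0 members, against 10.5% of all genes. The procedure of the study's methods gave 0, against 12.9% of the 3221 probe sets that entered it. Only probe sets with a 1.5-fold change against vehicle in some Wt treatment entered. Gsta3, Gstp1, Gstt1, Gstk1 and Mgst1 changed by less and could not be called by it, so that share and the count of members rest on unlike sets. At 10 μmol/kg 2 members were higher and 0 lower, against 5.06% and 12.4% of all genes, and of all called genes 28.9% were higher, or 43.8% with centred arrays. At 30 μmol/kg 3 members were higher and 1 lower, against 2.81% and 20.8% of all genes, with a median change of 0.15 over the members and -0.16 over all genes. Of the 2291 genes called at 30 μmol/kg 11.9% were higher, and with centred arrays 53.9% of 1181 were. Members whose treated mice all lay on 1 side of all vehicle mice numbered 4 with D3T and 2, 3 and 5 along the doses, where 14.1%, 7.96%, 22.9% and 28.3% of all genes did so.

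**Figure D5:**
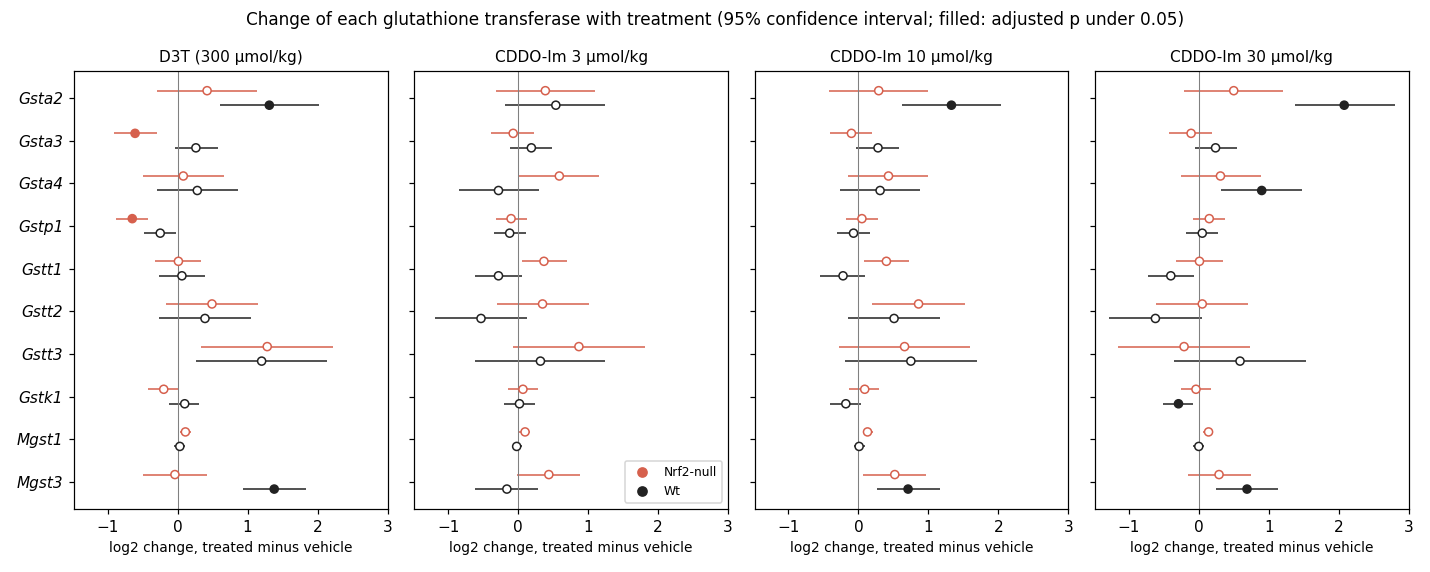
Log2 change of each of the 10 members with each treatment against vehicle (horizontal axes; positive is higher after treatment), Nrf2-null mice above Wt mice within each gene; lines give 95% confidence intervals, and filled points have an adjusted p under 0.05. Gsta2 moves from 0.54 at 3 to 2.08 at 30 μmol/kg CDDO-Im in Wt mice and stays between 0.29 and 0.5 in Nrf2-null mice.

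The study set 10 μmol/kg CDDO-Im beside 300 μmol/kg D3T as doses of like strength on Nrf2 targets, and Wt mice of these groups were compared directly. Of the members, 1 was lower and 0 were higher after CDDO-Im, against 13.8% and 4.87% of all genes (26.1% of called genes higher, or 44.6% with centred arrays). That was Mgst3, at 9.64 ± 0.19 after 10 μmol/kg CDDO-Im and 10.31 ± 0.14 after D3T (log2 -0.67, -1.12 to -0.22, adjusted p = 0.033). Centring each array on its median gave -0.6 (adjusted p = 0.058), the clock score as a covariate gave -0.62 (adjusted p = 0.12), testing with no expression minimum gave an adjusted p of 0.067, and leaving out Wt D3T mouse 1 or 3 or Wt 10 μmol/kg mouse 1 or 4 also ended the call. Gsta2 differed by 0.03 between the compounds, with an interval of -0.68 to 0.74, and Gsta4 by 0.02 (-0.55 to 0.6). These intervals do not show that the compounds act alike on either gene. The study matched these doses by the induction of Nqo1 and Gsta2 RNA, with NQO1 protein as a further check. The closeness of Gsta2 here is therefore not independent of that choice.

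At 30 μmol/kg CDDO-Im against D3T, 1 member was higher and 4 were lower, against 4.45% and 26.2% of all genes (14.5% of called genes higher, or 53.8% with centred arrays). Gstp1 was higher by 0.3 (adjusted p = 0.038), at 15.99 ± 0.03 after 30 μmol/kg CDDO-Im and 15.68 ± 0.16 after D3T. Gstt1 (-0.46), Gstt2 (-1.01), Gstk1 (-0.39) and Mgst3 (-0.69) were lower, with adjusted p from 0.0055 to 0.027, and all median-centred values of these 4 kept their sign but lost the call (-0.82 to -0.2, adjusted p from 0.066 to 0.23). On the centred scale Gsta4 was called higher (0.8, adjusted p = 0.042), which left 2 members higher, Gsta4 and Gstp1, and 0 lower. The clock score as a covariate ended the calls of Gstp1 (0.23, adjusted p = 0.14) and Gstt2 (-0.66, adjusted p = 0.11), and testing with no expression minimum ended those of Gstp1 (adjusted p = 0.072) and Gstt1 (adjusted p = 0.052). The Gstp1 call was lost without Wt D3T mouse 1 or 2 or any 1 of the 30 μmol/kg mice, that of Gstt1 without Wt D3T mouse 1, 2 or 3 or 30 μmol/kg mouse 3 or 4, that of Gstt2 without Wt D3T mouse 2 or 30 μmol/kg mouse 4, and that of Mgst3 without Wt D3T mouse 3 or 30 μmol/kg mouse 2 or 4, with adjusted p from 0.053 to 0.12. Gsta2 was higher by 0.78 (0.07 to 1.49, adjusted p = 0.089), and every 30 μmol/kg mouse lay above every D3T mouse. Between 30 and 10 μmol/kg only Gstt2 was called among the members, lower as given above, against 14.2% of all genes lower and 5.25% higher (27% of called genes higher, or 58.1% with centred arrays). Between 10 and 3 μmol/kg, Gstt2 and Mgst3 were higher, against 3.04% of all genes higher and 8.13% lower (27.2% of called genes higher, or 41.3% with centred arrays). Mgst3 differed by 0.87 there (0.42 to 1.32, adjusted p = 0.0096), or by 0.66 without Wt 3 μmol/kg mouse 1 (adjusted p = 0.063). With the clock score as a covariate it differed by 0.96 and was not called (adjusted p = 0.32).

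Genes most like each member over the 10 group means were named by Pearson r, as a description. For Gsta2 these were Gstm1 (0.992), a mu-class glutathione transferase, and Kbtbd13 (0.983). For Gsta4 they were Tkt (0.983), the transketolase of the pentose phosphate pathway, and Kbtbd13 (0.979). Gstt2 was closest to Ddhd2 (0.986) and Ppp2r2d (0.952), and Mgst3 to Atpif1 (0.933), the inhibitor of the mitochondrial ATP synthase, and Fdps (0.932), a farnesyl diphosphate synthase of sterol synthesis. The closest genes were Cyb5b (0.956) and Slc39a4 (0.942) for Gsta3, Tbxas1 (0.953) and AW112010 (0.951) for Gstp1, and Adipor2 (0.929) and Apoa2 (0.928) for Gstt1. They were Park7 (0.939) and Slc16a12 (0.922) for Gstt3, Nit2 (0.947) and Nqo2 (0.947) for Gstk1, and Dram2 (0.96) and Nox4 (0.934) for Mgst1. Between members, Gsta2 and Gsta3 had an r of 0.85 and Gsta2 and Mgst1 of 0.84, while Gsta2 and Gstt1 had -0.01 and Gsta2 and Gstt2 -0.19.

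The other glutathione transferases on the array, mostly of the mu class, gave 6 of 11 tested genes higher and 0 lower with D3T in Wt mice, and 0, 5 and 4 higher with 0 lower at 3, 10 and 30 μmol/kg CDDO-Im. Their median changes were 0.67 with D3T and 0.32, 0.38 and 0.3 along the doses. Of all genes in Wt mice, 2.64% were higher and 1.59% lower with D3T, and 0.474% were called at 3 μmol/kg. At 10 μmol/kg 5.06% were higher and 12.4% lower, and at 30 μmol/kg 2.81% and 20.8%. These shares apply to the lists that follow too. Gstm3 changed by 2.55 (adjusted p = 1.5e-05), Gstm4 by 1.28 (adjusted p = 0.00078) and Gstm1 by 1.17 (adjusted p = 0.00053) at 10 μmol/kg. In Nrf2-null mice 0 genes of this list were called with any treatment by limma. Of all genes there, D3T called 2.27% higher and 1.83% lower, and CDDO-Im called 0.774%, 0.0722% and 0.175% along the doses. With shares so low, 0 of 11 says little about this list, and the same holds for the lists below. After vehicle 1 was higher and 3 were lower than in Wt, against 5.85% and 4.97% of all genes. Of 13 tested genes of glutathione synthesis, recycling and peroxidases, 1 was higher and 1 lower with D3T and 0, 1 and 2 were higher along the doses in Wt mice. The called one at 10 μmol/kg was Chac2, which degrades glutathione (log2 0.33, adjusted p = 0.024). Of 9 tested genes of conjugate export and mercapturate formation, 1 was higher with D3T and 1, 3 and 4 along the doses, with 1 lower at 30 μmol/kg in Wt mice. In Nrf2-null mice 1 of these 9 was lower at 3 μmol/kg. The exporters Abcc4 (log2 1.28, adjusted p = 0.0035) and Abcc2 (log2 0.87, adjusted p = 7.9e-06) and the peptidase Anpep (log2 0.77, adjusted p = 0.015) were those at 10 μmol/kg. Of 11 other Nrf2 targets, 4 were higher with D3T and 0, 6 and 9 along the doses in Wt mice, and 0 lower, with Nqo1 at 2.31 (adjusted p = 1.6e-05) at 10 μmol/kg. In Nrf2-null mice 0 of these 11 were called higher with any treatment and 1 was lower with D3T, and after vehicle 6 were lower and 0 higher than in Wt.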

How the data were processed

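The 40 samples were grouped by genotype and treatment from the labels, 4 mice in each of 10 groups. For each of 45037 probe sets the authors deposited a log2 intensity from GCRMA. The files name no genome build, and the GCRMA version and the arrays normalized together are not stated by any source read. Symbols came from the platform annotation, in which 34945 probe sets carried 1 symbol, 932 several and 9160 none listed here. Probe sets that reached log2 4 in 3 or more mice of a group were kept (18935), and each gene was represented by the one of highest mean, which left 9695 genes. Changes were tested over all of these in 1 fit of the 10 groups with limma 3.58.1 (eBayes with trend and robust variances, statmod 1.5.0, R 4.3.3), with the Benjamini-Hochberg adjustment within a comparison and a threshold of 0.05. The fit was tested on simulated data. Single members were also compared by exact two-sided permutation tests, for which 4 mice against 4 cannot go below 0.029. Arrays carry no read depth, so precision is limited by how many mice were used.

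All 10 members are named, with the genes most like each by r over group means, and of the other lists the called genes of largest change at 10 μmol/kg CDDO-Im. The members, lists and tests were chosen with earlier results of these data known. The 12 alternatives covered the expression minimum, scaling, variance model, array weights, samples fitted, replicate block, mice left out, probe set choice and the procedure of the study's methods (a 1.5-fold minimum, 1000000 permutations for Kruskal-Wallis, a 5% false discovery rate and exact Wilcoxon tests). A clock score as a covariate was added after the data had been seen. Sequence windows are RefSeq's on GRCm38.p6, and plots were drawn with Matplotlib in Python.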

Additional observations from a re-analysis of the deposited data

Results flagged for a closer look

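In groups of 4, the gap between the highest or lowest mouse and its nearest neighbour, as a share of the whole range, was above Dixon's critical value in 5 of 100 member and group pairs, and chance alone gives about 1 in 20. Gsta3 in Nrf2-null D3T mouse 4 (13.28, others 14.41 to 14.49) had a share of 0.937, and Gstt1 in the same mouse (12.39, others 13.21 to 13.33) had 0.879. This is the mouse with low Kupffer cell and endothelial markers. Gsta4 in Wt D3T mouse 4 (10.71, others 11.4 to 11.53) and Gstt1 in Nrf2-null mouse 1 of the 10 μmol/kg CDDO-Im group (13.19, others 13.48 to 13.53) had 0.847 each. Mgst1 in Wt vehicle mouse 1 (15.92, others 15.97 to 15.98) had 0.871, a gap of little size on the log2 scale. Gsta2 differed between genotypes in its response to 30 μmol/kg CDDO-Im, by -1.59 (adjusted p = 0.033 with limma), tested as the difference itself.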

How the results depend on the processing

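No called change of a member reversed its sign under any alternative, and of 24 called changes 5 stood under every alternative and without any mouse. Without an expression minimum, which adds genes to the adjustment, 1 member was called for D3T against vehicle and 1 for 10 μmol/kg CDDO-Im against vehicle in Wt mice, 0 for the genotype difference at 30 μmol/kg, and in Wt mice 0 for 10 μmol/kg against D3T, 3 for 30 μmol/kg against D3T and 1 for 10 against 3 μmol/kg. Of the 18193 genes tested there, 243, 1323, 825, 1399, 2814 and 811 were called in these comparisons, in the same order. With array weights the counts were 5 for D3T in Wt mice, 2, 3 and 1 for 3, 10 and 30 μmol/kg in Nrf2-null mice, 2 for each of the 4 genotype differences, 3 for 10 μmol/kg against D3T and 2 for 30 against 10 μmol/kg. Array weights raised the calls over all 9695 genes too, from 410 to 1289 for D3T in Wt mice. For 3, 10 and 30 μmol/kg in Nrf2-null mice they rose from 75, 7 and 17 to 541, 613 and 36. For the genotype differences (D3T, then 3, 10 and 30 μmol/kg) they rose from 7, 167, 524 and 1154 to 63, 717, 780 and 1616. For 10 μmol/kg against D3T and 30 against 10 μmol/kg they rose from 1809 and 1888 to 2610 and 2775. Fits of the compared groups alone gave 4 for D3T in Wt mice, 0 for D3T in Nrf2-null mice and 2 for the genotype difference at 30 μmol/kg. Centred arrays gave 1 for the genotype difference with D3T, 0 for 10 μmol/kg against D3T and 2 for 30 μmol/kg against D3T, and a second quantile normalization gave 1 for the genotype difference with D3T, 0 for that at 30 μmol/kg and 2 for 30 μmol/kg against D3T. Over all genes centred arrays called 27, 1600 and 2101 in these comparisons, and the second quantile normalization called 41, 683 and 2018. The probe set of highest variance gave 1 for D3T in Nrf2-null mice, where 395 of all genes were called. The procedure of the methods, as adapted here, gave 1 at 10 μmol/kg (Mgst3) and 2 at 30 μmol/kg (Gsta2 and Gsta4) in Wt mice, where it called 43% and 37.4% of the 3221 probe sets entered. Members below its 1.5-fold minimum did not enter and could not be called. The study itself placed Gsta2 among the genes that responded to both D3T and 10 μmol/kg CDDO-Im. The clock score as a covariate gave 0 at 10 μmol/kg in Wt mice, 1 for the genotype difference with D3T, 2 for that at 30 μmol/kg, 0 for 10 μmol/kg and 3 for 30 μmol/kg against D3T, and 0 for 30 against 10 and for 10 against 3 μmol/kg. Over all genes that fit called 33, 8, 1269, 942, 2548, 31 and 2 in these comparisons, in the same order. The cause of these changes was not tested.

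The replicate numbers pair no mice in the labels, and same-numbered mice did not deviate together (mean r of -0.007, 0 of 13 comparisons with every pair over 0.1). The replicate block gave 2 members for 10 μmol/kg CDDO-Im against D3T, where 1 was called, and moved no other count by over 1.5 times. Over all genes it called 1791 in that comparison, where 1809 were called without it.

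With 1 mouse left out, the counts ranged in Wt mice from 1 to 2 for D3T, from 0 to 2 for 10 μmol/kg and from 1 to 4 for 30 μmol/kg against vehicle. In Nrf2-null mice they ranged from 2 to 5 for D3T, 0 to 1 for 3, 0 to 2 for 10 and 0 to 1 for 30 μmol/kg. The genotype differences ranged from 0 to 2 for D3T, 0 to 2 for 3, 0 to 2 for 10 and 0 to 3 for 30 μmol/kg, and the comparisons in Wt mice from 0 to 2 for 10 μmol/kg against D3T, 1 to 5 for 30 μmol/kg against D3T and 0 to 2 for 10 against 3 μmol/kg. The count of 4 for Nrf2-null against Wt vehicle mice stayed at 4 throughout. Calls over all genes were not counted with 1 mouse left out. These ranges therefore cannot tell a change in the members from a change in calls of all genes. Gstp1 and Mgst1 lie near the top of the array's range, and the other Mgst1 probe set near its minimum, which limits what either can show.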
